A study of Mus musculus with 16 samples.

Results

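The genes examined here are 35 drivers of the cell cycle, fixed by name: cyclins, cyclin-dependent kinases (CDKs) and their activating phosphatases, E2F and other cell cycle transcription factors, the Mcm helicase subunits and Pcna, and kinases and other proteins of mitosis. A gene was counted as holding a peak of the transcription factor Meis1 or Hoxb13 when a peak overlapped, by at least 1 bp, the gene body with 5 kb on either side. All 35 were found among the 21887 protein-coding genes of chromosomes 1 to 19, X and Y in the RefSeq annotation of the mouse build mm10. The data are ChIP-seq, in which DNA bound to a protein is pulled down with an antibody and sequenced, from heart ventricles of mice at postnatal day 15. Control mice received the vehicle PBS, and Paro/Neo mice received the aminoglycoside antibiotics paromomycin and neomycin at 150 mg/kg, injected 2 times a day into the peritoneum for 7 days from postnatal day 7. For strain, sex and genotype the labels used here give no entry. Each antibody, 1 against Meis1/2 (so that Meis2 may also be recovered) and 1 against Hoxb13, has 2 control and 2 Paro/Neo peak lists, and the 8 inputs of the series were not analysed here. The labels speak of ventricles of 2 hearts as duplicates for each sample, which leaves unclear whether a library is a pool of 2 hearts or 1 heart, and the spread between libraries may be partly technical.

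Progress from G1 into S phase begins with the D-type cyclins and their partners Cdk4 and Cdk6, followed by cyclin E with Cdk2, which release E2F factors to switch on the genes of DNA replication. Cyclin A and the Mcm helicase carry cells through S phase, and cyclin B with Cdk1, Aurora and Polo-like kinases carry them through mitosis. Mouse heart muscle cells largely leave this cycle in the days after birth, and Meis1 and Hoxb13, homeodomain transcription factors that can act together, are studied as regulators of that exit. The comparison therefore asks whether either factor was recovered at the driver genes themselves, and whether the drug pair altered this.

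The peak lists differed in length, and this bears on every count below. For Meis1, control replicate 1 had 3529 peaks, control replicate 2 had 3176, Paro/Neo replicate 1 had 1541 and Paro/Neo replicate 2 had 1025. For Hoxb13 the same libraries had 5202, 1121, 821 and 16963. Sequencing depth is unknown, so an absent peak has no detection limit. The deposited names of the second Meis1 replicates carry the letter of the other group; the labels were followed. As a check of the tissue, 9 of 10 heart muscle marker genes, Myh6, Myl2, Tnnt2 and Actc1 among them, held a region called in all 4 Hoxb13 libraries, where 2.84% of all genes did. Nppa was the muscle marker without one. A region in at least 2 libraries was held for Meis1 by 5 of 10 muscle markers, 2 of 5 endothelial markers (Pecam1 and Tek, in all 4 libraries) and 0 of the 6 fibroblast, 5 leukocyte and 5 erythroid markers. For Hoxb13 it was held by 9 of 10 muscle, 4 of 5 endothelial, 1 of 6 fibroblast (Dcn), 1 of 5 leukocyte (Cd68) and 0 of 5 erythroid markers. Over all genes the shares with such a region were 6.19% for Meis1 and 22.9% for Hoxb13. Bulk ventricle holds all of these cell types, and which cells gave the peaks at the driver genes was not tested.

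A Meis1 peak was listed at a single driver gene, Ccnd3, and in a single library. Of the 35, 0 held a Meis1 peak in control replicate 1, 1 in control replicate 2, and 0 in each Paro/Neo replicate. Over all protein-coding genes the shares with a peak were 8.59%, 8.21%, 4.07% and 2.83% in these libraries. To allow for gene length, genes were split into 10 length classes, and the share of each class that held a peak was summed over the 35 genes. That gives 2.3, 2.23, 1.02 and 0.741 genes for the same libraries, a gap of at most 2.3 genes in a library. Overlapping peaks of the 4 lists of an antibody were merged into regions. No driver held a Meis1 region found in 2 or more lists, against 6.19% of all genes (3.37% for 3 or more, 1.75% for all 4) and 1.6 genes at like length.

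Hoxb13 peaks were found at 21 of the 35 genes, at about the rate of other genes in the long lists. Control replicate 1 held a peak at 10 drivers (28.6%), where 24.2% of all genes held one and genes of like length would give 9.16. Control replicate 2 held 1 (2.86%), against 5.79% of all genes and 2.21 at like length. Paro/Neo replicate 1 held 1 (2.86%), against 4.2% and 1.58. Paro/Neo replicate 2 held 21 (60%), against 46.5% and 17.5. The driver counts thus followed the length of the lists, and the counts of both short lists lay below the like-length value while those of both long lists lay above it.

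**Figure D1:**
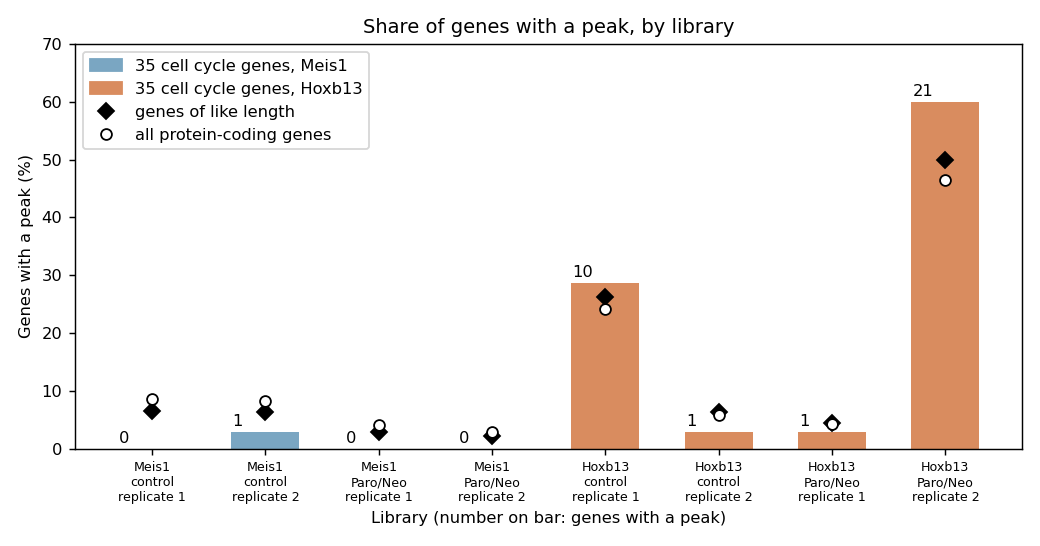
Share of genes with a peak (%) in each of the 8 libraries: bars are the 35 cell cycle genes, diamonds genes of like length and open circles all 21887 protein-coding genes, with the number of cell cycle genes above each bar. The Hoxb13 bars follow the list lengths, with 10 and 21 genes in the long lists and 1 in each short list, and Meis1 has 1 gene in 1 library.

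The 21 genes were nested across the Hoxb13 lists. All 10 drivers of control replicate 1 held a peak in Paro/Neo replicate 2, as did the single drivers of control replicate 2 (Cdk2) and Paro/Neo replicate 1 (E2f3). The other 11 drivers with a peak had it in Paro/Neo replicate 2 alone. Such nesting was general: of the 5161 genes with a Hoxb13 peak in at least 2 libraries, 5160 held one in Paro/Neo replicate 2. A Hoxb13 region found in 2 or more lists lay at 10 drivers (28.6%), against 22.9% of all genes and 8.71 at like length. It lay at 2, Cdk2 and E2f3, when 3 libraries were required, against 6.79% of all genes and 2.56 at like length. None held a region in all 4, against 2.84% of all genes and 1.1 at like length. The count of 10 rests on the long lists: leaving out control replicate 1 gave 2, as did leaving out Paro/Neo replicate 2, and leaving out both gave 0. These last counts were not computed over all genes, so the fall is not read as particular to the drivers.

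**Figure D2:**
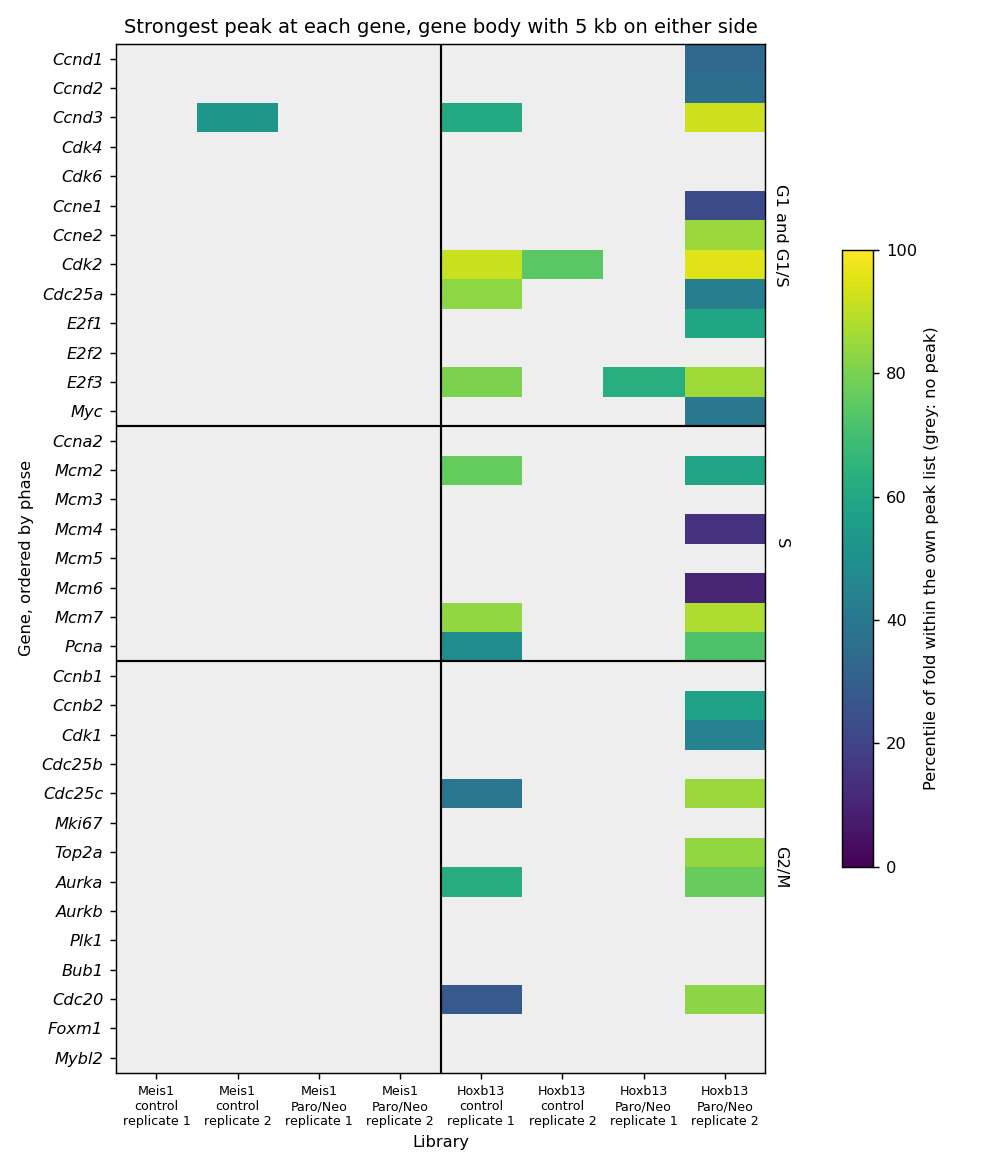
Strongest peak at each of the 35 genes (rows, by phase) in each library (columns), coloured by the percentile of its fold within its own list, with grey for no peak. Colour fills the columns of Hoxb13 control replicate 1 and Paro/Neo replicate 2, and Ccnd3 is the only gene with a Meis1 peak.

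The 3 phases gave similar pictures within the small numbers. A Hoxb13 region in at least 2 libraries lay at 4 of 13 genes of G1 and the G1/S step (3.23 at like length), 3 of 8 genes of S phase (1.96) and 3 of 14 genes of G2 and mitosis (3.52). In Paro/Neo replicate 2 the counts were 10 of 13 (6.5 at like length), 5 of 8 (3.89) and 6 of 14 (7.08). G2/M was the phase whose counts stayed under the like-length value in every Hoxb13 library, and the difference between phases was not tested. Of the 14 drivers with no peak in any of the 8 lists, 8 belong to G2/M: Ccnb1, Cdc25b, Mki67, Aurkb, Plk1, Bub1, Foxm1 and Mybl2. The others are Cdk4, Cdk6 and E2f2 in G1 and Ccna2, Mcm3 and Mcm5 in S phase. All 21 drivers with a peak held one in Paro/Neo replicate 2, where 46.5% of all genes did. At like length 7.08 of the 14 G2/M genes would hold one there. The share of all genes without a peak in any of the 8 lists was not computed, so no lack particular to G2/M is read from these names.

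E2f3 encodes an activating E2F factor of the G1/S step, and it is the driver whose own start carried Hoxb13 peaks in the most libraries. The peak ranked at the 80.1 percentile of fold in control replicate 1, at 63.2 in Paro/Neo replicate 1 and at 85.7 in Paro/Neo replicate 2, and there was none in control replicate 2. The fold enrichments over local background, which like all folds here are the authors' own values, were 3.72, 3.70 and 3.69. The peaks were 371, 187 and 2194 bp wide and merged into a region on chromosome 13 from 29984302 to 29986495, over the start of the gene (NCBI gene 13557, chromosome 13, 29906575 to 29986064). The nearest end of another protein-coding gene, Cdkal1, lay 128619 bp away, so this region has no close neighbour. The 250 bases before the start are shown because 3 lists meet there: 233 of them lay in the peak of control replicate 1, 106 in that of Paro/Neo replicate 1 and 250 in that of Paro/Neo replicate 2. Capitals mark the letters CCAAT, or ATTGG on the other strand (the CCAAT box, bound by NF-Y), and TTTGAA (CHR-like, the element of DREAM and MuvB complexes). This and the sequences below are RefSeq sequence of GRCm38.p6, the assembly of mm10, printed 5′ to 3′ on the strand of the gene.
E2f3, 250 bases before the start (chr13:29986064-29986313, minus strand): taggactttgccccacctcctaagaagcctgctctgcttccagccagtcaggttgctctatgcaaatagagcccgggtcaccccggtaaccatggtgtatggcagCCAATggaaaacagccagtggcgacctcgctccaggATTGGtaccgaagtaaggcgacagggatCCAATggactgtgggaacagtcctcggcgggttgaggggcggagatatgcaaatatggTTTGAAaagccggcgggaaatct
It holds 3 CCAAT boxes, beginning 145, 109 and 81 bases before the start, and a CHR-like element beginning 23 bases before it.

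Cdk2, the kinase partner of cyclins E and A, had the highest-ranked Hoxb13 peaks among the drivers, but they lay at a neighbour's start. The percentiles were 91.7 in control replicate 1, 74.3 in control replicate 2 and 95.3 in Paro/Neo replicate 2, with no peak in Paro/Neo replicate 1. The merged region (chromosome 10, 128695868 to 128696733) lay 1205 bp outside the Cdk2 body (NCBI gene 12566, chromosome 10, 128697938 to 128705051), beyond the end opposite to the start of this minus-strand gene. It covered the start of Rab5b, which encodes a GTPase of early endosomes, and overlapped the annotated body of Pmel. The 250 bases before the Rab5b start are shown for this reason, although Rab5b is not a cell cycle gene and was chosen after its values were seen. Of these bases, 250 lay in the peaks of control replicate 1 and of Paro/Neo replicate 2 and 241 in that of control replicate 2.
Rab5b, 250 bases before the start (chr10:128696269-128696518, minus strand): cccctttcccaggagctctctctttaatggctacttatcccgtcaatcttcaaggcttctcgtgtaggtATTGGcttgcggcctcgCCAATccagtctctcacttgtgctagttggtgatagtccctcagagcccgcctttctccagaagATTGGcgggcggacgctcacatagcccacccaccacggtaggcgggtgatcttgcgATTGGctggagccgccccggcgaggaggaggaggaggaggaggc
It holds 4 CCAAT boxes, beginning 181, 164, 100 and 44 bases before the start. The Cdk2 start itself had no peak in any list, and the nearest peak of its window ended 8318 bp from it.

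Ccnd3 encodes cyclin D3, a partner of Cdk4 and Cdk6, and it is the driver with the most peaks and the only one with peaks of both factors. Meis1 control replicate 2 held a peak of 200 bp inside the gene (chromosome 17, 47511265 to 47511464) at the 52.8 percentile, with a −log10 q of 6.65. The other 3 Meis1 lists held none. A Hoxb13 peak of Paro/Neo replicate 2 (47511128 to 47511682, percentile 77.4) enclosed it. In all, Paro/Neo replicate 2 held 9 Hoxb13 peaks in the window of this gene, whose body is 94.6 kb long, and control replicate 1 held 3. Of the 3 regions shared by these lists, 1 lay 23 bp from an end of Taf8, a subunit gene of the general factor TFIID (mean percentile 71.3). Another lay inside Ccnd3, 2629 bp from its outer start (48.3). The last lay over the end of Ccnd3 that meets Bysl, a gene of ribosome assembly (76.7). Of the 2 annotated starts of Ccnd3, the inner one was covered in Paro/Neo replicate 2 alone (percentile 81.9).

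Cdc25a encodes the phosphatase that activates Cdk2. Its peak in control replicate 1 ranked at 83.1 (174 bp wide, 409 bp from the start), and in Paro/Neo replicate 2 the peak over the start ranked at 5, a wide peak of 907 bp and low fold. A further peak of that list 1810 bp outside the gene ranked at 42.6. The other G1 genes with a peak had it in Paro/Neo replicate 2 alone. Among them Ccne2 (cyclin E2) ranked at 85.1 and E2f1, over its start, at 59.1. Myc, inside the gene, ranked at 40.1 and Ccnd2 (cyclin D2), over an end, at 36.3. Ccnd1 (cyclin D1), 1922 bp outside the gene, ranked at 34.2 and Ccne1 (cyclin E1), over its start, at 22.5. Ccne2 apart, these peaks fell in the lower or middle part of the list.

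In S phase, Mcm7, a subunit of the replicative helicase, ranked highest. Its peak stood at the 83.7 percentile in control replicate 1 and at 88.1 in Paro/Neo replicate 2, with none in the short lists. The merged region of 1400 bp (chromosome 5, 138170905 to 138172304) covered the ends of both Mcm7 (NCBI gene 17220) and its neighbour Ap4m1, an adaptor complex subunit. Pcna, the sliding clamp of DNA polymerase, had peaks over its start at 48.6 in control replicate 1 and 72.1 in Paro/Neo replicate 2. That region (chromosome 2, 132252442 to 132253530) also covered an end of the neighbouring Cds2, a phospholipid synthesis gene. Both promoters are shown because a peak overlapped their window, 250 bp before to 50 bp after the start, in 2 lists. All 250 bases before the Pcna start lay in both peaks. For Mcm7, 250 lay in the peak of Paro/Neo replicate 2 and 0 in that of control replicate 1, which sat on the bases after the start.
Pcna, 250 bases before the start (chr2:132253181-132253430, minus strand): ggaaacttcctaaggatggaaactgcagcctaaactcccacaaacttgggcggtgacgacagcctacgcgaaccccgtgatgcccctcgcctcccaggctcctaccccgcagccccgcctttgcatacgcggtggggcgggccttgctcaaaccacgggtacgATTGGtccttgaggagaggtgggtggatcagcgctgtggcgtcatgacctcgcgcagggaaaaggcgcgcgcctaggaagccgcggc
Mcm7, 250 bases before the inner start (chr5:138171267-138171516, minus strand): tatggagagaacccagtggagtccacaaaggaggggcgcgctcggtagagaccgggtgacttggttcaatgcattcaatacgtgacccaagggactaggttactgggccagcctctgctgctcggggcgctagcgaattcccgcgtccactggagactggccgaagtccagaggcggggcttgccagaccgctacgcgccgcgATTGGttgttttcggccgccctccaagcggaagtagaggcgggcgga
Each holds 1 CCAAT box on the other strand, beginning 87 bases before the start in Pcna and 47 in Mcm7. Mcm2, another helicase subunit, ranked at 76.5 and 58.5 in the long lists, but its region lay 3186 bp outside the gene and over the start of the neighbour Tpra1. The 250 bases before that start are shown for this reason, chosen after their values were seen, and 49 of them lay in the peak of control replicate 1 and 250 in that of Paro/Neo replicate 2. Here capitals also mark TTTATTG, the other strand of CAATAAA.
Tpra1, 250 bases before the start (chr6:88902001-88902250, plus strand): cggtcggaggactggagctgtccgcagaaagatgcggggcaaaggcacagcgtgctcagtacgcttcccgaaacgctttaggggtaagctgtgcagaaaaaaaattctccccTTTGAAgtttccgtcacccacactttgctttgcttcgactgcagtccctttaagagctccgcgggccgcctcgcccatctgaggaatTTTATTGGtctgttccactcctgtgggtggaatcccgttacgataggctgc
It holds a CHR-like element beginning 138 bases before the start, TTTAT and the other strand of CAATAAA, both beginning at 51, and a CCAAT box on the other strand beginning at 48 that overlaps them. Mcm4 (14.7) and Mcm6 (10.2) had a low-ranked peak in Paro/Neo replicate 2 alone, over an end of each gene.

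In G2/M, Aurka, the kinase of spindle poles, ranked at 62.2 in control replicate 1 and 76.7 in Paro/Neo replicate 2. The peaks were of nearly the same extent, 231 and 235 bp, and lay on chromosome 2 from 172370657 to 172370893, over the outermost end of the Aurka body (NCBI gene 20878) and 12 bp from the end of Cstf1, a subunit gene of mRNA 3′ end processing on the opposite strand. Of the 250 bases before the annotated inner start of Aurka, 158 and 164 lay in these peaks.
Aurka, 250 bases before the inner start (chr2:172370571-172370820, minus strand): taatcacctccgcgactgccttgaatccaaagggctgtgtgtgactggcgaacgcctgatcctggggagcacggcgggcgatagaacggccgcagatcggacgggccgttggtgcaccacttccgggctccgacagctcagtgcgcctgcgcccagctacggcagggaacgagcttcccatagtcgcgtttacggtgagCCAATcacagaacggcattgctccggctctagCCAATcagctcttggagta
It holds 2 CCAAT boxes, beginning 51 and 19 bases before the start, both closer to the start than the peaks, whose nearest edges lay 93 and 87 bp from it. Cdc25c, the phosphatase that activates Cdk1, ranked at 39.3 and 84.9 in the long lists, over or 151 bp from an end of the gene. Cdc20, an activator of the anaphase-promoting complex, ranked at 27.9 and 82.7, but its shared region lay 4591 bp outside the gene, over an annotated start of the neighbour Elovl1, a fatty acid elongase. Over its own start Cdc20 had a peak at 6.38 in Paro/Neo replicate 2 alone. Top2a (DNA topoisomerase of mitotic chromosomes, 83.8), Ccnb2 (cyclin B2, 57.7) and Cdk1 (the mitotic kinase, 44.5) likewise had a peak at their start in that list alone.

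Several of these peaks are as close to other genes as to the drivers. Of the 10 drivers with a shared Hoxb13 region, 3 (E2f3, Cdc25a and Cdc25c) had a region within 1 kb of their own ends and of no other protein-coding gene. Another 4 (Ccnd3, Pcna, Aurka and Mcm7) had regions within 1 kb of their own ends and of another gene, and 3 (Cdk2, Mcm2 and Cdc20) only within 1 kb of another gene. Over the 5014 genes with such a region, these classes held 43.5%, 34.2% and 11.1%, and 11.2% fell in neither. An assignment by distance cannot tell which gene of a pair a peak serves. With the gene body alone, or with 1 kb, 7 drivers held a shared region, against 18.7% and 20.2% of all genes. The windows of 57.1% of the drivers held another protein-coding gene, compared with 49.1% over all genes.

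**Figure D3:**
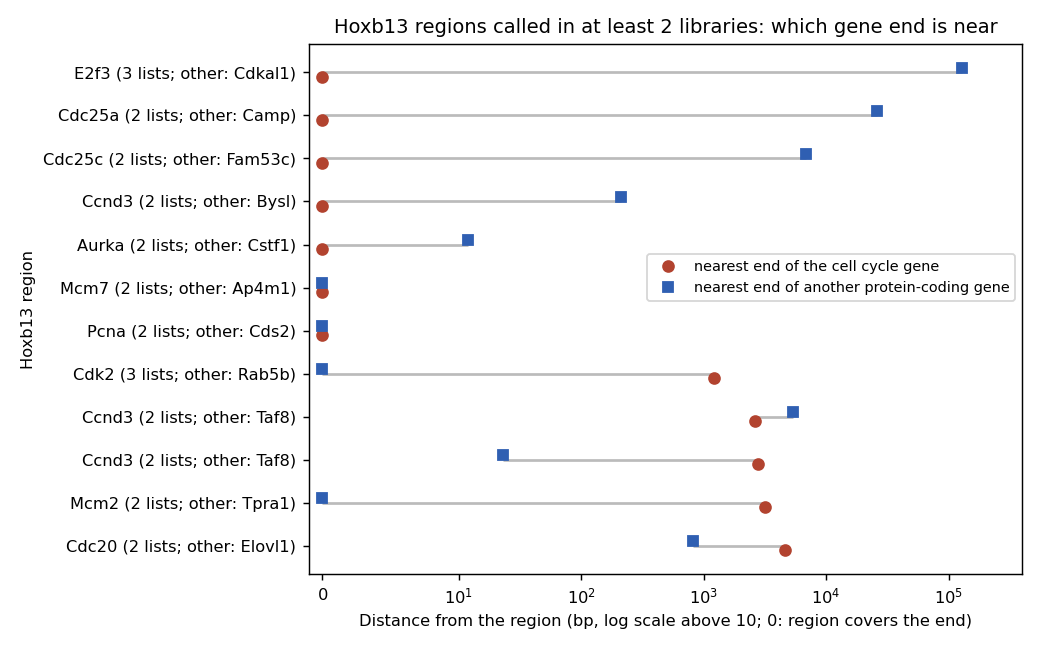
Distance in bp (log scale above 10) from each of the 12 Hoxb13 regions called in at least 2 libraries to the nearest end of the cell cycle gene (circles) and of another protein-coding gene (squares). At Cdk2, Mcm2, Cdc20 and 1 region of Ccnd3 the other gene is the closer, and at E2f3 it is 128619 bp away.

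Within Paro/Neo replicate 2, genes that also held a peak in another Hoxb13 list had higher-ranked strongest peaks than genes called there alone, for the drivers as for all genes. The strongest peak of a gene need not be the shared one, as at Cdc25a, where the shared peak ranked at 5. The 10 drivers with a peak in another list had a median top percentile of 83.8 (42.6 to 95.3), and the 11 called there alone had one of 40.1 (10.2 to 85.1). For all genes with a peak in that list the medians were 79.4 and 52.1, over 5160 and 5013 genes. Genes with a peak in another list made up 47.6% of the drivers with a peak and 50.7% of all genes with one. When each Hoxb13 list was reduced to its strongest 821 peaks, the length of the shortest, each library held 1 driver: Cdk2 in 3 libraries and E2f3 in Paro/Neo replicate 1, at shares of 4.2% to 4.71% of all genes.

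**Figure D4:**
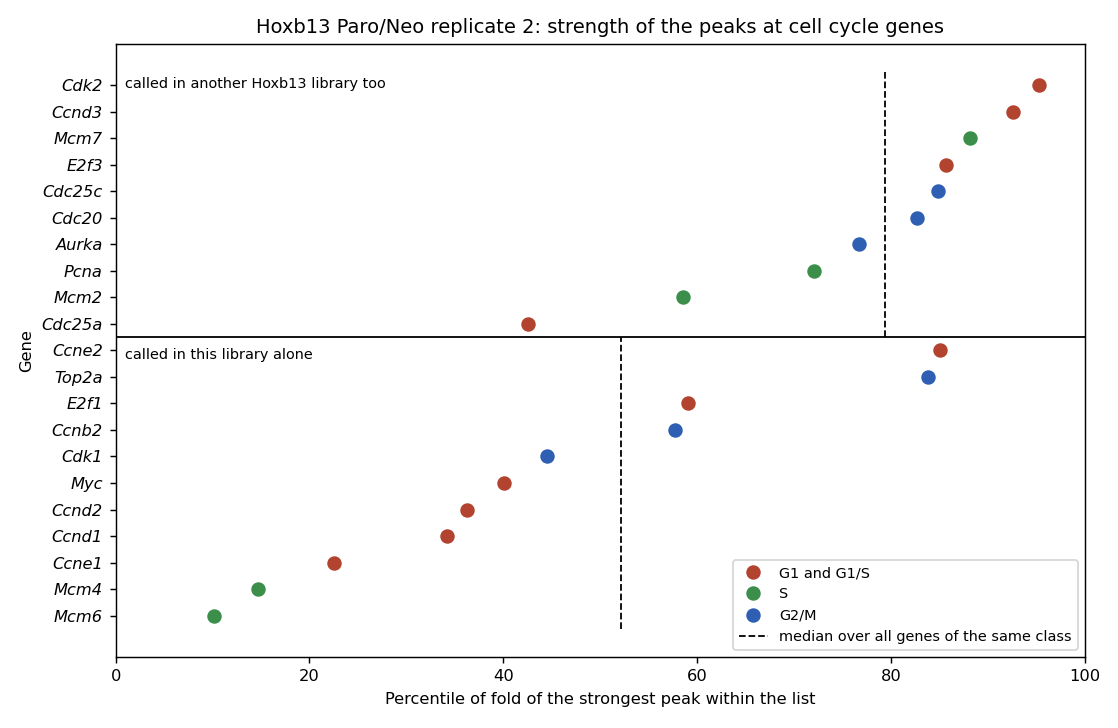
Percentile of fold of the strongest peak at each of the 21 cell cycle genes in Hoxb13 Paro/Neo replicate 2, coloured by phase, with genes called in another Hoxb13 library above the line and genes called in this library alone below it; dashed lines are medians over all genes of the same class. The shared genes centre on 83.8 and the others on 40.1.

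Between treatments the driver counts overlapped for Hoxb13 and hardly varied for Meis1. Hoxb13 peaks lay at 5.5 ± 6.36 drivers in control and 11 ± 14.1 after Paro/Neo (SD, n = 2 each), a difference smaller than the spread between replicates. Its sign depends on the longest list: the difference of 5.5 became −4.5 without Paro/Neo replicate 2. It was 10 when control replicate 1 was left out, 1 when control replicate 2 was, and 15.5 when Paro/Neo replicate 1 was, and with each Hoxb13 list reduced to 821 peaks it was 0. Genes of like length would give 9.16 and 2.21 in the Hoxb13 control libraries and 1.58 and 17.5 after Paro/Neo. For Meis1 the means were 0.5 ± 0.707 and 0 ± 0 (SD, n = 2 each), a difference of −0.5 that is a single peak at Ccnd3 and is gone without control replicate 2. That library is among the second Meis1 replicates, whose deposited names carry the letter of the other group. If those names and not the labels were right, the sign would reverse, and no setting with the groups exchanged was run. No driver had a peak in both libraries of 1 arm and in none of the other arm, for either antibody. Over all genes, peaks in both controls alone were found at 2.08% with Meis1 and 0.00457% with Hoxb13, and peaks in both Paro/Neo libraries alone at 0.0183% and 0.132%. At these shares 35 genes would hold few or none. At a single gene, an exact test of 2 libraries against 2 cannot reach a p of 0.05.

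Between antibodies, Hoxb13 peaks lay at 8 more drivers per library than Meis1 peaks, on the mean of 4 libraries each. Genes of like length would give 9.16, 2.21, 1.58 and 17.5 in the Hoxb13 libraries and 2.3, 2.23, 1.02 and 0.741 in the Meis1 libraries. A gap in the same direction is therefore present at like length and is not particular to the drivers. The antibodies were run on separate sets of samples, as far as the titles tell, so antibody and set cannot be told apart, and with the Hoxb13 lists reduced to 821 peaks and the Meis1 lists to 1025, the length of the shortest list of each antibody, the difference was 1. Leaving out Hoxb13 Paro/Neo replicate 2 gave 3.75. Each of the 21887 genes was tested by Fisher's exact test, 4 libraries against 4, with Benjamini-Hochberg adjustment. At an unadjusted exact p under 0.05, 488 genes differed, and none did after adjustment of the exact test (0%, smallest adjusted p = 1). With 4 libraries against 4 the exact test gives no p below 0.0286. Over 21887 genes, an adjusted p under 0.05 would need most genes to reach that value. The adjusted test therefore cannot decide whether single genes differ between antibodies, and no conclusion is drawn from it. None of the drivers was among the 488: the smallest p, 0.143 for Cdk2 and E2f3 (exact test, 3 Hoxb13 against 0 Meis1 libraries), became 1 when adjusted.

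Widening the window shows which drivers lay just outside it. With 10 kb on either side Top2a held a Meis1 region in all 4 libraries, 7.03 kb from the gene (chromosome 11, 98985599 to 98985918) and outside any protein-coding gene. It ranked at 89.5 and 89.0 in control and lower, at 54.6 and 64.8, after Paro/Neo. Since these lists differ in length, the ranks cannot tell whether the region changed between arms. Top2a was the driver nearest to a Meis1 region of at least 2 libraries, followed by Mki67, the proliferation antigen Ki-67, at 12.7 kb. The median over the drivers was 285 kb, and over all genes 338 kb. For Hoxb13 a region of 2 libraries 7.67 kb from Aurkb, the kinase of the chromosomal passenger complex, lay in Borcs6 and ranked at 34.0 in control replicate 1 and 4.66 in Paro/Neo replicate 2. Just inside the limit was the Cdc20 region at 4591 bp. With 10 kb on either side, a region in at least 2 libraries lay at 7.17% of all genes for Meis1 and 25.5% for Hoxb13.

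The letters CCAAT were more frequent in promoter windows of the drivers than in all promoter windows. The strings searched included elements linked to cell cycle genes (CCAAT, CHR-like and E2F-like), so their choice was not independent of the gene class. RefSeq promoter windows matched 26 of the 35 genes, with 30 windows in all. The full set of windows covers 27025 genes, more than the 21887 protein-coding genes used above. It is therefore not limited to protein-coding genes, which the drivers all are, and it was not matched for gene length. The promoter shares below are not comparable with the gene shares above, and an excess in them is not read as particular to the drivers. The 250 bases before each start were searched on both strands for exact letters. CCAAT was found in 23 of 30 windows (76.7%), compared with 33.8% of all 32851 windows and 42.7% of the 3333 windows with a Hoxb13 peak in at least 2 libraries. TTTGAA was found in 8 (26.7%, 16% of all and 6.81% of those with a shared Hoxb13 peak), among them Cdk1, Ccnb2, Top2a, Cdc20 and Mki67, and CGCGAAA, an E2F-like string, in 3 (Mcm5, Mcm6 and Cdk1; 10%, 0.703% and 1.65%). TGACAG, the Meis core, was found in 2 windows (6.67%), compared with 15.9% of all windows and 13.4% of those with a shared Hoxb13 peak. TTTAT, a posterior Hox-like string, was found in 4 (13.3%), compared with 37.3% and 15.4%, and CAATAAA, whose other strand contains TTTAT, in 0, compared with 4.2% and 2.28%. A match is no binding site, and base composition differs between the sets: the median GC content was 59.6% in the windows of the drivers, 52.4% in all windows and 65.2% in the windows with a shared Hoxb13 peak. Of the printed sequences, that of the neighbour Tpra1 holds TTTAT and CAATAAA, which overlap, and those of E2f3, Pcna, Mcm7, Aurka and Rab5b hold none of the Meis or Hox-like strings. The same bases of Elovl1, the neighbour at the shared Cdc20 region, are not printed. They hold 1 CCAAT box and none of the Meis or Hox-like strings. A Hoxb13 peak overlapped a promoter window in at least 2 libraries for 4 of the 26 genes (15.4%), against 11% of all genes in the table. By library it did for 4 in control replicate 1 (11.6% of all genes), 0 in control replicate 2 (2.26%), 1 in Paro/Neo replicate 1 (1.46%) and 13, or 50%, in Paro/Neo replicate 2 (24.4%). No driver had a Meis1 peak there. Over the 27025 genes 1.11% and 1.09% did in control, 0.377% and 0.337% after Paro/Neo, and 0.729% in at least 2 libraries.

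A further 80 genes of the cycle gave shared-region counts near the like-length value, and in the longest Hoxb13 list a higher count. They cover origin licensing and replication, other E2F and DREAM factors, entry kinases, the spindle and cytokinesis. A Meis1 region in at least 2 libraries lay at 4 of 80 (5%, 4.31 at like length): Gins2, Tk1, Espl1 and Fzr1. Espl1, which encodes separase, the protease that frees sister chromatids, held one inside the gene in all 4 libraries, at a mean percentile of 88.5 (chromosome 15, 102302477 to 102302837). Gins2, a subunit of the replicative helicase, held one in 3. A Hoxb13 region in at least 2 libraries lay at 21 of 80 (26.2%, 20 at like length), and in at least 3 at 6 (7.5%, 5.79 at like length): Gins2, Rfc4, Wee1, Cks1b, Ube2c and Rhoa. In Paro/Neo replicate 2 a peak lay at 51 of 80 (63.7%, 40.9 at like length). A region in all 4 libraries lay at 1 of 80 for Meis1 (1.2 at like length) and 1 of 80 for Hoxb13 (2.42). Rfc4, the clamp loader subunit, held one in all 4 libraries (mean percentile 78.1), 1 bp from its own end and over that of Eif4a2. Of 10 genes that restrain the cycle, CDK inhibitors and pocket proteins, some held a Hoxb13 region of at least 2 libraries: 4 did (2.39 at like length). Cdkn2d (p19) had one over its start in all 4 libraries at a mean percentile of 89.1, and Rb1, the retinoblastoma protein, had one in 3 (64.6). Genes of like length would give 0.313 for all 4 libraries and 0.755 for at least 3. For Meis1 1 of the 10 held a region of at least 2 libraries (0.612 at like length). This was Cdkn1b (p27), over an end in 3 libraries (58.3), where 0.328 would be given at like length for at least 3. These lists were compared by counts alone, and the differences between them and the drivers were not tested.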

How the data were processed

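ChIP-seq peak lists of 8 libraries were used, 2 control and 2 Paro/Neo for each antibody. Per the submitters' processing notes, the tools were MACS2, HOMER, Bowtie2, Picard 1.127 and FastQC 0.11.5, and the build mm10. Peak-calling options, control input and depth: not given in the sources used here. Each deposited list gives the fold enrichment of each peak as a ratio over local background, its −log10 p and −log10 q (smallest 1.00), and a deposited score that equals 10 times the −log10 q, rounded down, in 100% of peaks and was not used further. Folds ranked peaks within their own list only. Peaks on chromosomes 1 to 19, X and Y were kept; 24 mitochondrial peaks were left out.

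Gene positions came from RefSeq on GRCm38.p6, which shares the coordinates of mm10; exons are not used here, so exon and intron were not assigned. Strand and promoter sequence were known for 26 of the 35 genes. Overlaps were computed in Python 3.11.15 with pandas 2.3.3, tested on simulated peaks, and Fisher's test in scipy 1.17.1. The members, lists and tests were chosen with earlier results of these data known, so counts over the members carry no p. Named were members with a shared region or a Meis1 peak, in every library, then the others by rank, and genes of the other lists with a region in 3 libraries. Sequences were printed for members with a promoter peak in at least 2 libraries, and for the neighbours Rab5b and Tpra1, but not for the neighbour Elovl1. Alternatives were other windows, a −log10 q of at least 2, 50% of the peak inside the window, equal list lengths, leaving out each library, and a replicate block.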

Additional observations from a re-analysis of the deposited data

How the results depend on the processing

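Across 94 alternative settings of 8 counts and differences, 73 moved the value by at most 1.5 times or less than the spread between libraries. That spread was wide for the Hoxb13 treatment difference of 5.5 (SD 6.36 and 14.1). Values from −4.5 to 15.5, 0 among them, therefore counted as unmoved there, in 12 of 13 settings. The 73 also include replicate blocks that match by construction, so this number is no measure of stability. With 10 kb on either side, 1 driver (Top2a) held a Meis1 region in at least 2 libraries in place of 0, against 7.17% of all genes. With lists reduced to the shortest of each antibody (821 peaks for Hoxb13, 1025 for Meis1), the Hoxb13 count fell from 10 to 1, by phase to 1 (G1 and G1/S), 0 (S) and 0 (G2/M), the Meis1 treatment difference became 0 and the difference between antibodies 1. With a −log10 q of at least 2, the G2/M count was 1, and the count over all phases was 7, against 15.4% of all genes. Leaving out each library gave Hoxb13 counts from 2 to 10, by phase from 2 to 4, 0 to 3 and 0 to 3, with the low values without control replicate 1 or Paro/Neo replicate 2. It gave treatment differences from −1 to 0 for Meis1 and −4.5 to 15.5 for Hoxb13, and antibody differences from 3.75 to 10.4. Without replicate 2 of both groups the treatment differences were 0 (Meis1) and −9 (Hoxb13). Without both long lists, added after seeing the data, the Hoxb13 count was 0. For left-out libraries and reduced lists, region counts over all genes were not computed.

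The labels give the groups the same replicate numbers but no shared animal or day. A replicate block left the mean treatment differences at −0.5 (Meis1) and 5.5 (Hoxb13) by construction. Across genes, the replicate differences of the control and Paro/Neo libraries correlated at −0.0191 for Meis1 and −0.431 for Hoxb13, where the long lists carry opposite numbers; the crossed pairing, added after seeing the data, also gave 5.5. Depth is unknown, so an absent peak, above all in the short lists, is not evidence of absent binding.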
